A study of Mus musculus with 22 samples.

Results

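The GATA factor genes are the 6 genes Gata1, Gata2, Gata3, Gata4, Gata5 and Gata6, chosen by name from a table of 24467 windows, 1 for each gene, which span 5000 bp with the gene's transcription start site (TSS) in the middle. All 6 were in the table. They were read as a blood group (Gata1 to Gata3) and an endoderm and heart group (Gata4 to Gata6), 3 genes each. The libraries came from CUT&RUN, in which an antibody directs a nuclease to chromatin and the released DNA is sequenced. Neural progenitor cells (NPC) were compared with the mouse embryonic stem cells (ESC) they were made from, with antibodies to SUZ12, JARID2, MTF2, H3K27me3 and H3K4me3. Each of the 5 antibodies had 2 libraries per cell type, described as biological replicates, and unspecific IgG had 1 per cell type, 22 libraries in all. NPC had received 10 ng/mL bFGF for 72 h and then 500 nM SAG, a Hedgehog pathway agonist, for 48 h, whereas ESC were kept in medium with 100 U/mL LIF, 3 µM CHIR99021 and 1 µM PD0325901. All groups shared 1 C57BL/6 ESC line with a Tir1 transgene and no degradation tag, labelled untreated, so values describe a single line.

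GATA factors are zinc finger transcription factors that bind the DNA motif they are named after. Gata1 drives red cell and megakaryocyte formation, Gata2 maintains blood stem and progenitor cells and also acts in parts of the developing nervous system, and Gata3 acts in T cells, trophectoderm, sympathetic neurons and skin. Gata4 and Gata6 act in endoderm and heart, and Gata5 in the endocardium and outflow tract. SUZ12 is a core subunit of Polycomb repressive complex 2 (PRC2), the enzyme that writes H3K27me3, a mark of silent developmental genes. JARID2 and MTF2 are accessory subunits that belong to alternative forms of PRC2 and help place it on CpG-rich DNA. H3K4me3 marks active and poised promoters, and promoters with both marks are called bivalent.

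The promoter sequences are shown so that the CG dinucleotides around each start site can be set beside the values of its window. RefSeq promoters (GRCm38.p6, 250 bases before to 50 bases after a start) were matched for 4 of the 6 genes; Gata4 and Gata6 were not matched. Those that hold the TSS of the window are given 5′ to 3′ on the gene's strand, with every CG dinucleotide in capitals. Gata1 lies at chrX:7967861-7968160 (minus strand), Gata2 at chr6:88198414-88198713 (plus strand), Gata3 at chr2:9878551-9878850 (minus strand) and Gata5 at chr2:180334630-180334929 (minus strand).
Gata1: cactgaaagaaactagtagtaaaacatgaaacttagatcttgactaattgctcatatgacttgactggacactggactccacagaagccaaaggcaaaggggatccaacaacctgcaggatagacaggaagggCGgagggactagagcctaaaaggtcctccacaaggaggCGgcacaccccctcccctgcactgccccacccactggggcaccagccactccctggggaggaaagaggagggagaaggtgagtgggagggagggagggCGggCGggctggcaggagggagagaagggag
Gata2: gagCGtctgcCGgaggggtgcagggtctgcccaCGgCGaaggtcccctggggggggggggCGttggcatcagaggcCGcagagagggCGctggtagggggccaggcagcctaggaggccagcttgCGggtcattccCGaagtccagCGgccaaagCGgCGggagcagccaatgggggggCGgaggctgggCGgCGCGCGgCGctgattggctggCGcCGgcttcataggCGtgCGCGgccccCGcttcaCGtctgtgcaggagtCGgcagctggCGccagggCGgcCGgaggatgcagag
Gata3: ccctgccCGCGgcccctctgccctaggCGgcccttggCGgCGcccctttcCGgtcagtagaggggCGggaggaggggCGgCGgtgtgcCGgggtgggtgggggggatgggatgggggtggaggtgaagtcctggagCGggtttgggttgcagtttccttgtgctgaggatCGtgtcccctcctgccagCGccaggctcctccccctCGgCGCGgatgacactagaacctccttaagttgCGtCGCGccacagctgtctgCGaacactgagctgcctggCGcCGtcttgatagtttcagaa
Gata5: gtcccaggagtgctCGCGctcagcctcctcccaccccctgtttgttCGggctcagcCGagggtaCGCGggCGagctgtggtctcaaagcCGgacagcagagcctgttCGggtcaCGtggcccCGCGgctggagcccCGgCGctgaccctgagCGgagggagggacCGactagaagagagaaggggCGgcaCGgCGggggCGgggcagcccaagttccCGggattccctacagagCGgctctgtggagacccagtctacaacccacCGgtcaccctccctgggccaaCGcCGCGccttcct

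The Gata1 promoter held 4 CG dinucleotides, at the 34.7th percentile of the 32851 promoters of the same length, whose median was 7. The Gata2, Gata3 and Gata5 promoters held 29, 22 and 26, at the 87.7th, 77.7th and 83.8th percentiles. A second RefSeq promoter of Gata2, at chr6:88193641-88193940 and outside the counted window, held 32. A search on both strands for AGATAA, for TGATAA, for AGATAG and for TGATAG, the common forms of the GATA motif, found 1 match in the Gata3 promoter and 0 in the others. At least 1 match was present in 29.8% of all promoters.

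The counted windows, in mm10 coordinates, were chrX:7965411-7970410 for Gata1, chr6:88196164-88201163 for Gata2 and chr2:9876101-9881100 for Gata3. Those of the endoderm and heart group were chr14:63242772-63247771 for Gata4, chr2:180332180-180337179 for Gata5 and chr18:11050010-11055009 for Gata6. Each window covers the annotated TSS with the sequence on either side of it. For Gata1, Gata2, Gata3 and Gata4 the RefSeq gene starts farther upstream, by 8.75, 4.77, 9.35 and 26.4 kb, so an upstream promoter of these genes was outside the counted window. The Gata6 window shared 4942 bp with that of 1010001N08Rik, the Gata5 window 3177 bp with that of Gata5os, and the Gata3 window 2355 bp with that of 4930412O13Rik, so those values belong to both genes of each pair.

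Counts per library over all windows ranged from 448667 to 857691 for SUZ12, 339591 to 492529 for JARID2, 439379 to 832117 for MTF2, 647615 to 1569812 for H3K27me3, 3264267 to 8425292 for H3K4me3 and 298458 to 667898 for IgG. Levels are given as CPM, the count scaled to the library's total over all windows. A count of 3, taken as the floor, was worth 0.356 to 10.1 CPM, and this covers counting error only. The 2 NPC H3K27me3 libraries stood apart from each other: 11.0% of counts in replicate 1 and 19.6% in replicate 2 lay in the top 1% of windows, against 7.20% and 6.65% in ESC. In MTF2 that share was 3.05% and 7.02% in NPC, against 10.5% and 8.44% in ESC. In SUZ12 it was 4.94% and 5.05% in NPC, against 10.5% and 9.24% in ESC. In JARID2 it was 2.63% and 2.57% in NPC, against 4.01% and 4.22% in ESC. Averaged over 23468 windows, the 2 NPC JARID2 libraries differed by no more than counting noise (a chi-square of 0.998 per degree of freedom). Results for JARID2 are therefore also given with them summed. The average does not describe each window, since Gata4 had 56 and 14 counts in these libraries. ESC JARID2 and NPC SUZ12 had similar values, 1.02 and 1.03. Of marker genes checked with H3K4me3, 7 of 7 NPC markers were higher in NPC and 6 of 7 ESC markers were lower (edgeR quasi-likelihood test, adjusted p below 0.05), which is the direction of the labels.

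A total of 4 genes, Gata2, Gata3, Gata4 and Gata6, ranked among the windows with the most SUZ12 and MTF2 in both cell types, Gata5 ranked somewhat lower, and Gata1 lay below the median window. Gata6 had 262 and 241 CPM of SUZ12 in NPC, against 415 and 409 CPM in ESC. Its mean was at the 99.8th percentile of all windows in NPC and the 99.6th in ESC. Gata5 averaged 82.0 ± 2.5 CPM in NPC and 174 ± 10 CPM in ESC (SD, n = 2 each), the 97.3rd and 97.9th percentiles. Its IgG also ranked high, at the 92.1st percentile in NPC and the 98.3rd in ESC. Gata1 averaged 15.3 ± 0.4 CPM in NPC and 14.3 ± 4.5 CPM in ESC (SD, n = 2 each), against medians over all windows of 39.3 CPM in NPC and 29.8 CPM in ESC. The 5 other genes thus ranked high in NPC although their SUZ12 CPM was lower there than in ESC.

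**Figure D1:**
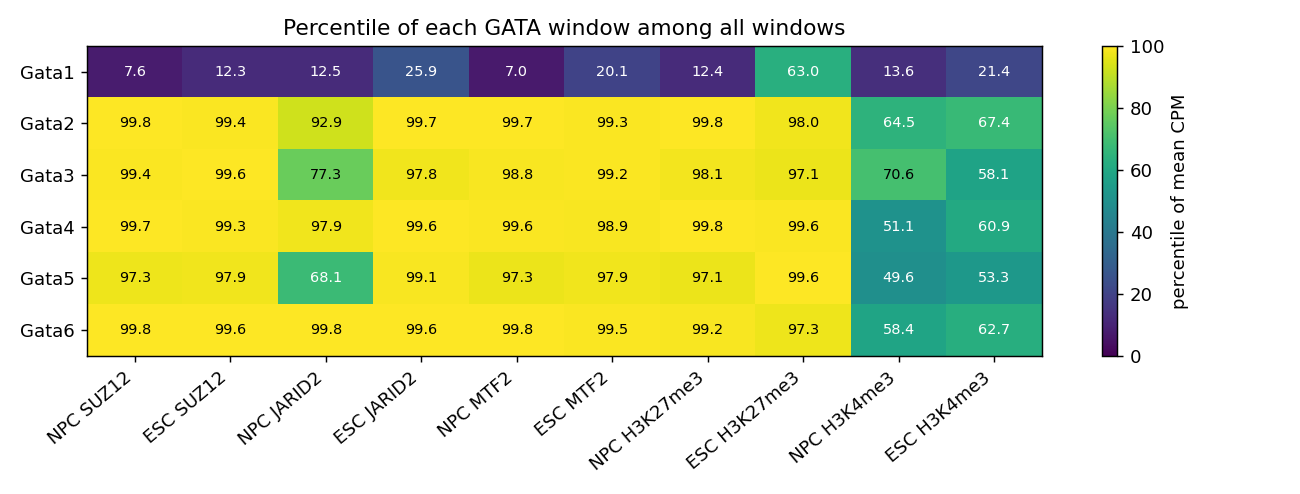
Percentile of the mean CPM of each GATA window (rows) among all 24467 windows, for each antibody with NPC left of ESC (columns), coloured from 0 to 100. Gata2 to Gata6 lie above the 97th percentile for SUZ12, MTF2 and H3K27me3 in both cell types, and Gata1 lies at or below the 63.0th in every group.

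The first comparison asked how PRC2 occupancy at the GATA genes in NPC stood to that in ESC. SUZ12 was lower in NPC at all 5 GATA windows that had enough counts to be tested, by 1.63-fold at Gata2 to 3.00-fold at Gata3. Gata1 had 7 and 7 counts in NPC, against 15 and 6 in ESC, and was not tested. Gata3 had 124 and 201 CPM of SUZ12 in NPC, against 405 and 413 CPM in ESC. Both NPC values lay below both ESC values, and the log2 change was -1.58 ± 0.22 (SE, n = 2 per group, edgeR quasi-likelihood test, adjusted p = 4.61e-11). Gata2 had 266 and 241 CPM in NPC, against 391 and 296 CPM in ESC, a log2 change of -0.70 ± 0.21 (adjusted p = 0.00706). The groups did not overlap, but the gap was narrow.

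In the endoderm and heart group, Gata5 had 83.7 and 80.2 CPM of SUZ12 in NPC, against 181 and 167 CPM in ESC, a log2 change of -1.34 ± 0.23 (adjusted p = 2.05e-07). IgG at Gata5 had 61.4 CPM in NPC and 83.8 CPM in ESC, so IgG differed the same way. In NPC its SUZ12 stood above IgG by a log2 difference of only 0.50 ± 0.54. The part of IgG in the SUZ12 change at Gata5 was not tested. Gata4 had 228 and 212 CPM of SUZ12 in NPC, against 382 and 291 CPM in ESC, a log2 change of -0.88 ± 0.21 (adjusted p = 0.000403). Gata6 changed by -0.96 ± 0.21 on the log2 scale (adjusted p = 8.48e-05). For these 3 genes, too, both NPC libraries were below both ESC libraries. How many of all windows were separated in this way was not counted, here or for the other antibodies. Over all windows tested, 13.1% were called lower and 2.97% higher. The median log2 change was -0.96 over the 5 tested GATA windows and 0.07 over all windows. SUZ12 counts were also less concentrated in the top 1% of windows in NPC than in ESC. The part of this in the GATA changes was not tested. Gata3 and Gata5 were called under all 11 alternatives tried, with adjusted p of at most 0.0276 and 0.0329, whereas a minimum count of 30 ended the calls of Gata2, Gata4 and Gata6 and gave Gata2 a log2 change of 0.13. Under that minimum the log2 change was -0.75 at Gata3, -0.51 at Gata5, -0.052 at Gata4 and -0.13 at Gata6. The scaling was recomputed there from the windows kept, so filter and scaling changed together, and their parts were not told apart. All 5 log2 changes rose by a similar amount, at Gata3 and Gata5 as at Gata2, Gata4 and Gata6. The calls of these 3 genes also ended in 1 fit over all libraries and without NPC SUZ12 replicate 2, which left 2 windows called. That of Gata2 ended as well with library totals (adjusted p = 0.0575), without NPC SUZ12 replicate 1 (adjusted p = 0.110) and without ESC SUZ12 replicate 1 (adjusted p = 0.09997).

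**Figure D2:**
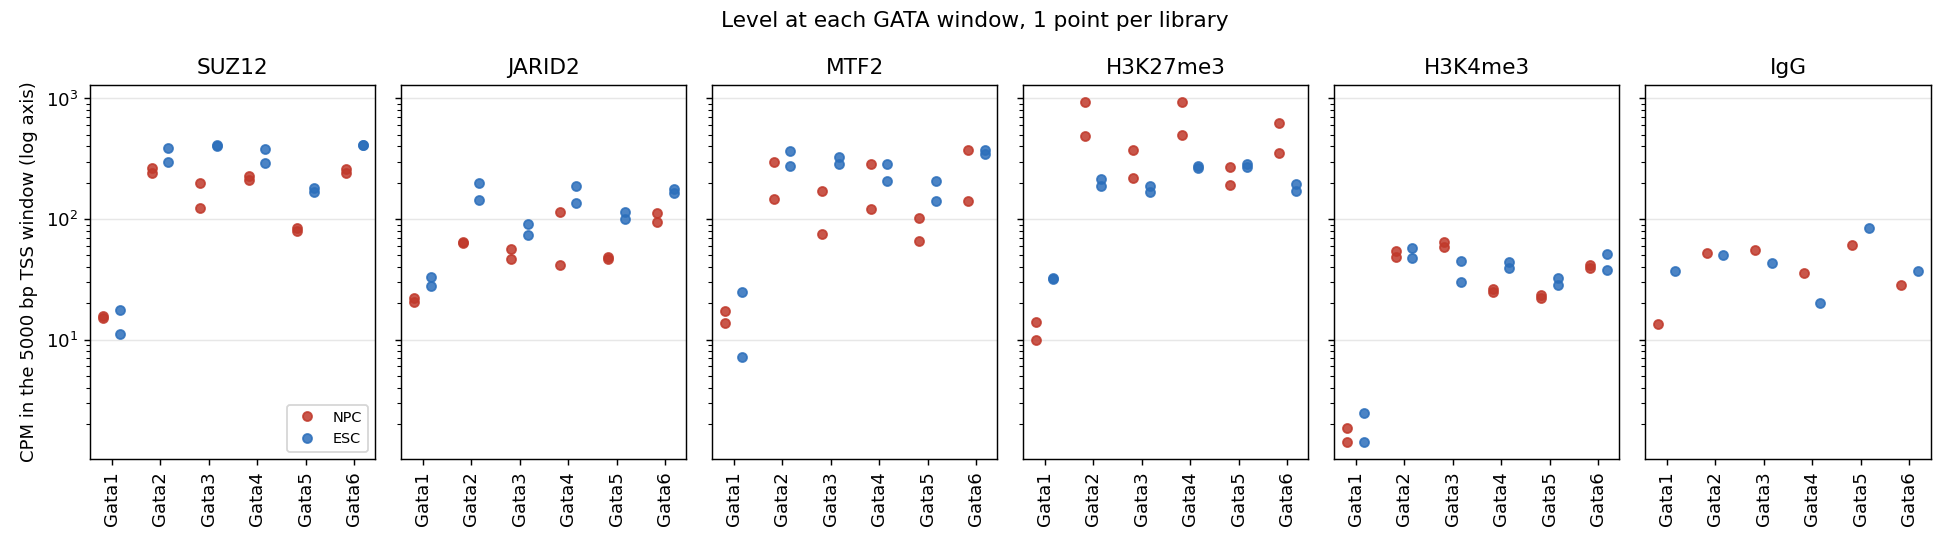
CPM (log axis) in each GATA window for the 5 antibodies and IgG, 1 point per library, with NPC in red left of ESC in blue. SUZ12 points of NPC lie below those of ESC at Gata2 to Gata6, whereas H3K27me3 points of NPC lie above those of ESC at Gata2, Gata3, Gata4 and Gata6.

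JARID2 was lower in NPC at 3 of the 6 GATA windows, Gata2, Gata4 and Gata5, and no GATA window was higher. Gata2 had 62.9 and 64.8 CPM in NPC, against 199 and 145 CPM in ESC, a log2 change of -1.45 ± 0.25 (edgeR quasi-likelihood test, n = 2 per group, adjusted p = 2.05e-05). Gata5 had 48.7 and 47.1 CPM in NPC, against 101 and 114 CPM in ESC, a log2 change of -1.18 ± 0.27 (adjusted p = 0.00680). At Gata2 and Gata5 the NPC libraries were close to each other and well below both ESC libraries. IgG at Gata5 had 61.4 CPM in NPC and 83.8 CPM in ESC, so its NPC JARID2 lay below IgG and IgG differed the same way. At Gata2 IgG had 52.4 CPM in NPC and 50.3 CPM in ESC, so its NPC JARID2 was near IgG. IgG at Gata4 was the higher in NPC, 35.9 CPM against 20.1 CPM in ESC. The part of IgG in the JARID2 changes was not tested. Gata4 had 114 and 41.2 CPM of JARID2 in NPC, against 189 and 136 CPM in ESC, a log2 change of -0.98 ± 0.25 (adjusted p = 0.0196). The low NPC value of Gata4 rests on 14 counts, and without that library the log2 change was -0.52 (adjusted p = 0.518), and it was -2.001 without the other NPC library (adjusted p = 1.75e-05). The remaining windows did not pass: the log2 change was -0.52 ± 0.45 at Gata1, -0.66 ± 0.28 at Gata3 (adjusted p = 0.419) and -0.74 ± 0.22 at Gata6 (adjusted p = 0.110). With the 2 NPC libraries summed, 4 windows were lower, Gata6 being the addition (adjusted p = 0.0282).

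Few windows changed in JARID2 at all: 0.75% of those tested were lower and 0.0792% higher in NPC. The 3 calls were not stable to the processing, since DESeq2 and background window scaling each left 1, and 1 fit over all libraries left 0. Gata2 was called under 11 of 12 alternatives. Leaving out a library left 1 or 2 calls, with 1 left without NPC JARID2 replicate 2 and 1 without ESC JARID2 replicate 2. The call of Gata5 also ended without NPC JARID2 replicate 1 (adjusted p = 0.130), and that of Gata4 without ESC JARID2 replicate 1 (adjusted p = 0.488). Gata6 had the highest JARID2 rank of the 6 genes in NPC, at the 99.8th percentile with 112 and 94.2 CPM, and was at the 99.6th in ESC, whereas Gata2 was at the 92.9th percentile in NPC and the 99.7th in ESC.

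MTF2 was not called at any of the 5 GATA windows tested, all of which had negative log2 changes, and at each of them NPC replicate 2 was higher than NPC replicate 1. Gata6 had 141 and 375 CPM in NPC, against 371 and 347 CPM in ESC, so its groups overlapped. Gata3 had 75.1 and 170 CPM in NPC, against 327 and 284 CPM in ESC, a log2 change of -1.57 ± 0.80 (edgeR quasi-likelihood test, n = 2 per group, adjusted p = 0.176). Gata5 had 66.0 and 102 CPM in NPC, against 208 and 142 CPM in ESC, a log2 change of -1.34 ± 0.54 (adjusted p = 0.0829). At these 2 genes both NPC libraries were below both ESC libraries, and the unadjusted p was below 0.05 (0.0478 and 0.0142). The log2 changes were -0.80 ± 0.92 at Gata2, -0.56 ± 0.79 at Gata4 and -0.73 ± 1.00 at Gata6. Over all windows, 8.89% were called lower and 3.28% higher. Gata3 and Gata5 were called lower by DESeq2, in 1 fit over all libraries and without NPC MTF2 replicate 2, the library with the higher share in the top windows, whose part in the result was not tested beyond this.

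A direct test of whether JARID2 changed more than MTF2 called none of the 6 GATA windows, and none had an unadjusted p below 0.05, while 2.78% of all windows were called with the higher log2 change for JARID2 and 0.662% with the lower. The difference in log2 change, JARID2 minus MTF2, ranged from -0.59 ± 0.85 at Gata2 (95% interval -2.25 to 1.07) to 0.97 ± 0.75 at Gata3 (-0.51 to 2.44). These intervals are wide, so the 2 accessory subunits were not shown to act alike at these genes.

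**Figure D3:**
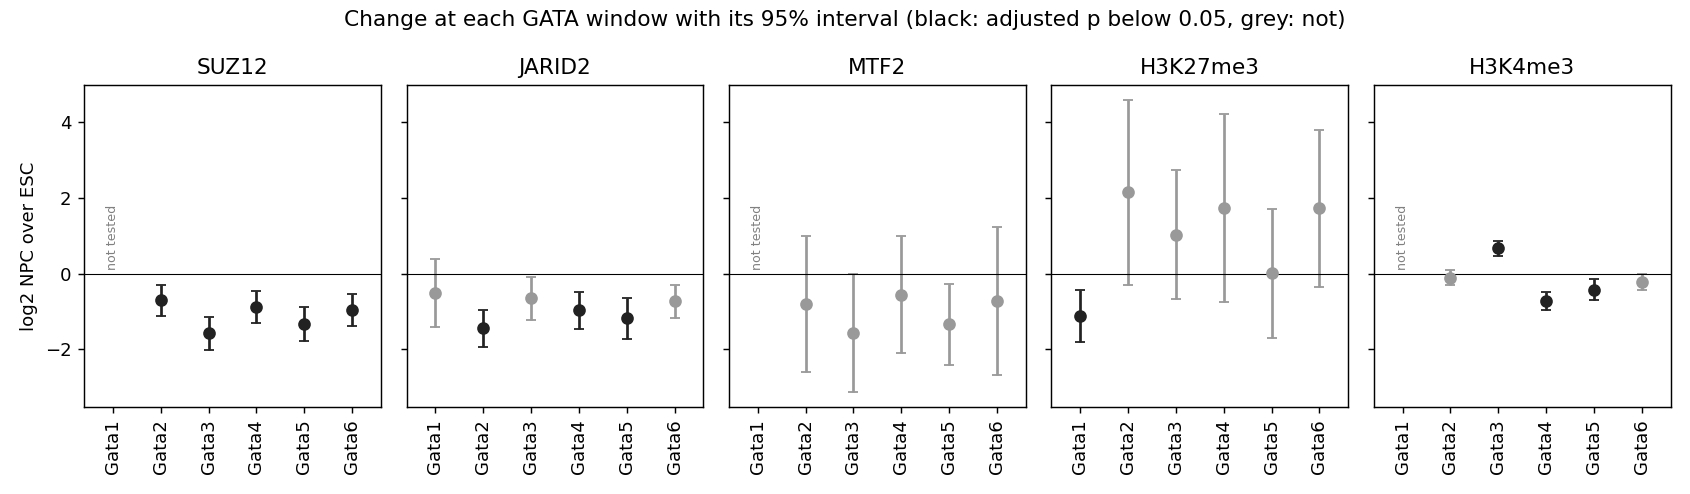
Log2 change (NPC over ESC) at each GATA window for each antibody, with its 95% interval from the edgeR fit; black marks adjusted p below 0.05 and grey does not. SUZ12 is below 0 at all 5 tested windows, and the H3K27me3 intervals of Gata2 to Gata6 are wide and include 0.

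H3K27me3, the mark written by PRC2, was higher in both NPC libraries than in both ESC libraries at Gata2, Gata3, Gata4 and Gata6. No GATA window passed the test as higher, and how many of all windows were separated in this way was not counted. Gata2 had 493 and 935 CPM in NPC, against 215 and 187 CPM in ESC, a log2 change of 2.14 ± 1.25 (edgeR quasi-likelihood test, n = 2 per group, adjusted p = 0.146). Gata4 had 500 and 936 CPM in NPC, against 264 and 276 CPM in ESC, a log2 change of 1.73 ± 1.27 (adjusted p = 0.255). Gata6 had 351 and 628 CPM in NPC, against 195 and 171 CPM in ESC, a log2 change of 1.73 ± 1.06 (adjusted p = 0.168). In each case the NPC library with the larger share in the top windows gave the higher value. Gata3 had 219 and 373 CPM in NPC, against 190 and 168 CPM in ESC, a log2 change of 1.03 ± 0.87 (adjusted p = 0.327). Gata5 stood apart from these 4: it had 192 and 268 CPM in NPC, against 284 and 272 CPM in ESC, a log2 change of 0.00 ± 0.86 (adjusted p = 0.997), so its NPC CPM was not above that of ESC in either library.

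Gata1 was the 1 GATA window called for H3K27me3, and it was lower in NPC. It had 9.98 and 14.0 CPM in NPC, against 32.1 and 32.4 CPM in ESC, a log2 change of -1.12 ± 0.35 (adjusted p = 0.00545). These values rest on 9 and 22 counts in NPC, against 31 and 21 counts in ESC. In the IgG libraries Gata1 had 13.5 CPM in NPC and 36.9 CPM in ESC, so the level was that of IgG in both cell types and IgG differed the same way; the part of IgG in the change was not tested. The call was kept under 7 of 11 alternatives, and it ended without NPC H3K27me3 replicate 1 (adjusted p = 0.0976) and without ESC H3K27me3 replicate 1 (adjusted p = 0.0836). Without NPC H3K27me3 replicate 2 the log2 change was -1.93.

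Over all windows H3K27me3 was called higher in 22.9% and lower in 23.5%. The H3K27me3 counts of GATA windows depended on the libraries and the fit. Without NPC H3K27me3 replicate 1 there were 4 windows called higher. Without NPC H3K27me3 replicate 2 there were 3 called, Gata2 higher and Gata1 and Gata5 lower (Gata5 -0.79, adjusted p = 0.0363). Without ESC H3K27me3 replicate 1 there were 0. DESeq2 called 3 higher, Gata2, Gata4 and Gata6, and a minimum count of 30 called 4 higher. The value of Gata2 lay between 1.03 and 2.72 under all 12 alternatives, and that of Gata5 between -0.79 and 0.61. With NPC H3K27me3 replicate 2 left out, the log2 change was smaller at each of Gata2, Gata3, Gata4 and Gata6. It was then 1.03 at Gata2, 0.03 at Gata3, 0.64 at Gata4 and 0.68 at Gata6.

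Whether H3K27me3 and SUZ12 changed differently was tested directly. The difference in log2 change, H3K27me3 minus SUZ12, was 2.85 ± 1.11 at Gata2 (edgeR quasi-likelihood test, adjusted p = 0.0376), 2.62 ± 0.95 at Gata3 (adjusted p = 0.0256) and 2.70 ± 1.04 at Gata6 (adjusted p = 0.0353). These 3 windows were called, and 16.7% of all windows were called in that direction. Gata4 had 2.61 ± 1.12 (adjusted p = 0.0588) and Gata5 had 1.34 ± 0.87 (adjusted p = 0.222), neither of which passed. Gata1 had the opposite sign, -0.92 ± 0.63 (adjusted p = 0.255). No GATA window was called with any 1 of the SUZ12 or ESC H3K27me3 libraries left out, whereas 5 were called without NPC H3K27me3 replicate 1 and 4 without replicate 2. The difference was then 3.46 and 1.76 at Gata2.

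H3K4me3 was higher in NPC at Gata3, of the blood group, and lower at Gata4 and Gata5, of the endoderm and heart group. Gata3 had 58.5 and 65.0 CPM in NPC, against 44.9 and 30.1 CPM in ESC, a log2 change of 0.66 ± 0.10 (edgeR quasi-likelihood test, n = 2 per group, adjusted p = 1.04e-10). Gata4 had 26.3 and 24.9 CPM in NPC, against 39.2 and 44.5 CPM in ESC, a log2 change of -0.72 ± 0.12 (adjusted p = 1.86e-08). Gata5 had 22.4 and 23.5 CPM in NPC, against 32.3 and 28.2 CPM in ESC, a log2 change of -0.42 ± 0.14 (adjusted p = 0.00463). The NPC libraries were on 1 side of both ESC libraries at each of these genes. Gata2 had -0.11 ± 0.10 (adjusted p = 0.370) and Gata6 had -0.22 ± 0.11 (adjusted p = 0.0590), and at both genes the NPC and ESC libraries overlapped. Gata1 had 6 and 12 counts in NPC, against 9 and 9 in ESC, and was not tested.

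H3K4me3 changed at many windows, 26.7% being higher and 29.2% lower, so 3 of 5 called GATA windows is near the share of all windows. The signs of Gata3, Gata4 and Gata5 were kept under all 11 alternatives, but background window scaling and 1 fit over all libraries called none of them. The call of Gata5 ended without ESC H3K4me3 replicate 1 (adjusted p = 0.139) and by DESeq2 (adjusted p = 0.196). Gata6 was called without ESC H3K4me3 replicate 2 (adjusted p = 0.00352) and with no filter (adjusted p = 0.0307). In rank, these were middling windows: Gata3 was at the 70.6th percentile in NPC and the 58.1st in ESC, and Gata4 at the 51.1st in NPC and the 60.9th in ESC. The window of 4930412O13Rik, which shares sequence with that of Gata3, also had higher H3K4me3 in NPC, by 0.61 ± 0.10 on the log2 scale (adjusted p = 3.05e-09). That of Gata5os had -0.42 ± 0.14 (adjusted p = 0.00535) and that of 1010001N08Rik, at the Gata6 start, -0.24 ± 0.10 (adjusted p = 0.0450).

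Summed over the 3 blood genes, H3K4me3 was 115 and 115 CPM in NPC, against 104 and 79.8 CPM in ESC. Over the 3 endoderm and heart genes it was 90.1 and 87.7 CPM in NPC, against 123 and 111 CPM in ESC. In both sums NPC lay outside the range of ESC, above it for the blood group and below it for the endoderm and heart group. The rise of the blood sum was that of Gata3, which averaged 61.8 CPM in NPC and 37.5 CPM in ESC. Gata2 averaged 51.3 CPM of H3K4me3 in NPC and 52.2 CPM in ESC. Whether the groups differed was not tested. For SUZ12 both sums were lower in NPC. The blood group had 406 and 457 CPM in NPC, against 813 and 720 CPM in ESC. The endoderm and heart group had SUZ12 sums of 573 and 533 CPM in NPC, against 978 and 866 CPM in ESC. The ratio of means was 0.563 and 0.600, so the 2 groups were close in SUZ12. Gata1 added at most 33.3 CPM to any sum of the blood group over the 5 antibodies, so these sums describe Gata2 and Gata3.

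**Figure D4:**
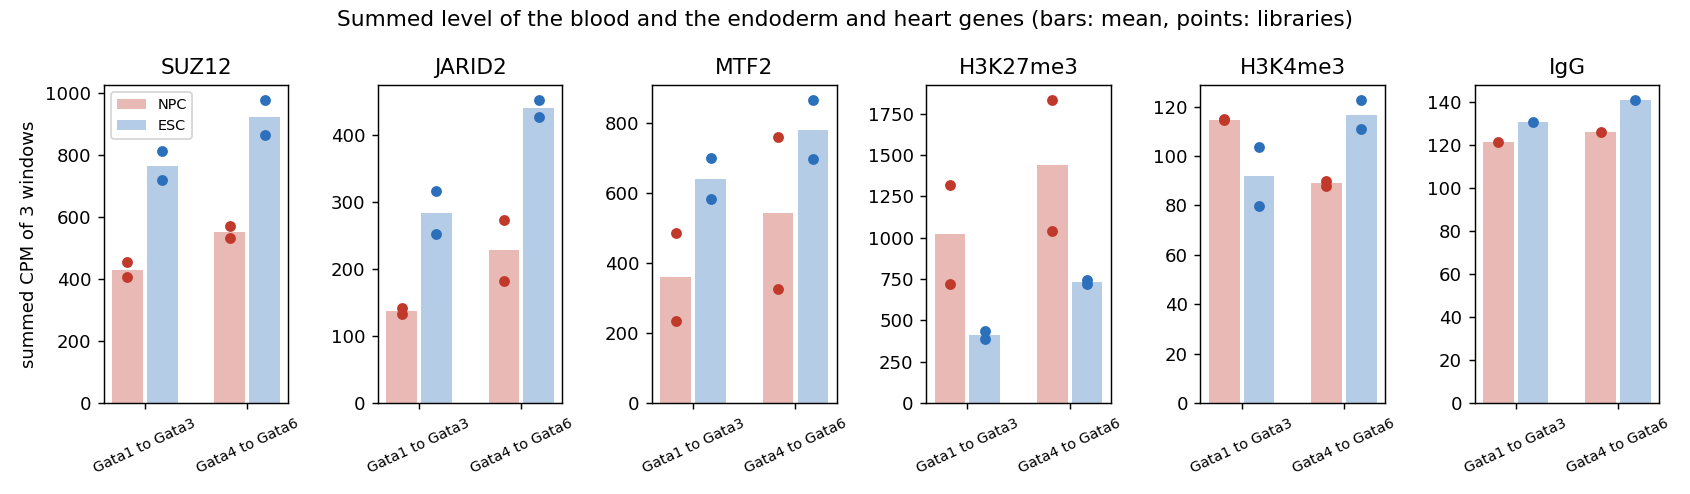
Summed CPM of the 3 blood windows (Gata1 to Gata3) and the 3 endoderm and heart windows (Gata4 to Gata6) for each antibody and IgG, with NPC left of ESC; bars are means and points are libraries, and each panel has its own axis from 0. SUZ12 is lower in NPC in both sums. H3K4me3 is higher in NPC in the blood sum, through Gata3, and lower in the endoderm and heart sum.

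Each antibody was then set against IgG in the same cell type, in 1 fit over all libraries, with a window called above IgG at a log2 difference of at least 1 and adjusted p below 0.05. H3K27me3 was above IgG at 5 GATA windows, all but Gata1, in both cell types, where 15.1% of windows were called in NPC and 22.5% in ESC. Gata4 stood highest in both, with a log2 difference of 5.42 ± 0.93 in NPC (edgeR quasi-likelihood test, adjusted p = 5.54e-06) and 4.34 ± 1.00 in ESC (adjusted p = 0.000600). Its NPC value was 6.06 without NPC H3K27me3 replicate 1, 4.31 without replicate 2 and 4.32 by library totals, and it was called each time. Without ESC H3K27me3 replicate 1 the call of Gata2 in ESC ended (adjusted p = 0.0520), which left 4, and with IgG of both cell types Gata1 was called in ESC (1.15, adjusted p = 0.0191), which made 6. The IgG level of Gata4 was 35.9 CPM in NPC and 20.1 CPM in ESC, in ESC the lowest of the 6 genes. That ESC value rests on 6 counts in 1 library. At Gata5 IgG was the highest of the 6 genes, 61.4 CPM in NPC and 83.8 CPM in ESC, the 98.3rd percentile of all windows in ESC. Gata5 had the smallest differences of the 5 called genes, 2.95 ± 0.56 in NPC and 2.33 ± 0.57 in ESC. Fits of H3K27me3 with IgG alone, chosen after seeing the data, called 0 GATA windows in either cell type.

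In ESC, SUZ12 was above IgG at Gata2, Gata3, Gata4 and Gata6, from 3.12 ± 0.87 at Gata2 to 4.41 ± 1.00 at Gata4 (adjusted p = 0.0199 and 0.00493). Without ESC SUZ12 replicate 1 the call of Gata2 ended (adjusted p = 0.102), which left 3. The same 4 genes were called for MTF2 in ESC, from 3.11 ± 0.87 at Gata2 to 4.06 ± 1.00 at Gata4, though 1 was called in a fit of MTF2 with IgG alone. Without ESC MTF2 replicate 1 the calls of Gata2 and Gata4 ended (adjusted p = 0.0998 and 0.0513). With IgG of both cell types, Gata6 was the highest of the 6 genes in ESC, at 4.02 for SUZ12 and 3.90 for MTF2. Gata4 then had 4.00 for SUZ12 and 3.65 for MTF2. Over all windows in ESC, 5.67% were called for SUZ12 and 9.1% for MTF2. Gata5 did not pass in ESC, with 1.40 ± 0.56 for SUZ12 (adjusted p = 0.137) and 1.51 ± 0.56 for MTF2 (adjusted p = 0.0712). It was called, making 5 GATA windows, for SUZ12 with IgG of both cell types (adjusted p = 0.00475), with background windows (adjusted p = 0.0162) and in a fit of SUZ12 with IgG alone (adjusted p = 0.000465). For MTF2 it was called with IgG of both cell types (adjusted p = 0.00178), with background windows (adjusted p = 0.00248) and without ESC MTF2 replicate 2 (adjusted p = 0.0395). In NPC no window of the table was called above IgG for SUZ12, JARID2 or MTF2 (0% each), nor for JARID2 in ESC (0%), so the count of 0 GATA windows there tells nothing of these genes. At an unadjusted p below 0.05 and a log2 difference of at least 1, the windows of the table numbered 495 for SUZ12, 140 for JARID2 and 650 for MTF2 in NPC, and 560 for JARID2 in ESC. Of the GATA windows these held 4 for SUZ12, 1 for JARID2 and 3 for MTF2 in NPC, and 3 for JARID2 in ESC. Gata6 had the largest NPC differences of the 6 genes, 3.22 ± 0.82 for SUZ12 and 3.30 ± 0.82 for MTF2. Fits of 1 antibody with IgG, chosen after seeing the data, called 4 GATA windows for SUZ12 in NPC, 3 for JARID2 in ESC and 1 for JARID2 in NPC, that of Gata6.

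H3K4me3 was not called above IgG at any GATA window in either cell type, also at an unadjusted p below 0.05, against 38.9% of windows in NPC and 36% in ESC. The Gata3 difference was 1.08 ± 0.63 in NPC (adjusted p = 0.105) and 0.64 ± 0.73 in ESC (adjusted p = 0.427). This result turned on the scaling: with scaling from windows not above IgG, all 5 windows but Gata1 were called in both cell types, with log2 differences from 2.39 at Gata5 to 4.28 at Gata6 in NPC. Under the same main scaling, 0 of the 6 windows were above IgG for both H3K27me3 and H3K4me3, while 4.05% of windows in NPC and 2.29% in ESC were. Under the main scaling Gata1 was below IgG for H3K4me3, by 2.11 ± 0.71 on the log2 scale in NPC and 3.43 ± 0.71 in ESC. It had 1.84 and 1.42 CPM in NPC and 1.42 and 2.49 CPM in ESC. This, too, turned on the scaling. With scaling from windows not above IgG, the Gata1 difference was 0.71 in NPC (edgeR quasi-likelihood test, adjusted p = 0.295) and -0.75 in ESC (adjusted p = 0.228).

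The balance of both marks was described by the log2 ratio of mean H3K27me3 to mean H3K4me3 CPM, after adding 2 CPM to each, with no test. It was 4.70 in NPC and 2.63 in ESC at Gata4, and 3.75 in NPC and 1.90 in ESC at Gata2. At Gata6 it was 3.54 in NPC and 1.99 in ESC. The ratio thus leaned further to H3K27me3 in NPC at these 3 genes. Gata3 and Gata5 had nearly the same ratio in both cell types, 2.22 in NPC and 2.195 in ESC at Gata3, and 3.22 in NPC and 3.12 in ESC at Gata5. Among all windows their percentiles were higher in NPC, 78.7 against 68.1 in ESC at Gata3, and 96.4 against 82.5 at Gata5. The NPC ratios average 2 H3K27me3 libraries that stood apart from each other. At Gata1 the ratio was the lower in NPC, 1.95 against 3.12 in ESC. The median window had 0.87 in NPC and 0.72 in ESC.

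Likeness between windows was measured as the Euclidean distance over 10 means, 5 antibodies by 2 cell types, of the log2 ratio of CPM to IgG, among 19270 other windows. The 3 windows nearest to Gata2 were Lmx1b (0.78), Prdm16 (0.94) and Foxb2 (0.94). Near Gata3 were Vax1 (1.09) and Twist1 (1.12), and those nearest to Gata4 were Emx1 (1.23), Fezf2 (1.45) and Msx1. Those of Gata6 were En1 (0.77), Otx1 (1.01) and Msx1 (1.17), and Gata5 was nearest to Nhlh2 (0.72), Chrna3 (0.79) and Gabbr2 (0.85). Most of these are genes for developmental transcription factors; Chrna3 encodes a nicotinic receptor subunit and Gabbr2 a GABA receptor subunit. Gata1 was nearest to Spink2 (0.56), Olfr1234 (0.61) and Lce1a1 (0.65), which encode a protease inhibitor, an olfactory receptor and a skin envelope protein. Within the family, Gata2 and Gata3 were closest (2.08), followed by Gata4 and Gata6 (2.33) and by Gata2 and Gata6 (2.35). Gata5 was nearer to Gata3 (3.68) than to Gata6 (6.57) or Gata4 (6.88). Many windows outside the family were nearer, Gata3 being the 107th nearest to Gata2, and Gata1 and Gata4 were farthest apart (11.1). These distances share the IgG libraries and carry no test.

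The genes that GATA factors work with or act beside were counted from 5 lists, chosen with earlier results of these data known. For comparison, of all windows tested, 2.97% were higher and 13.1% lower for SUZ12, and 22.9% and 23.5% for H3K27me3. For H3K4me3 these shares were 26.7% and 29.2%, for MTF2 3.28% and 8.89%, and for JARID2 0.0792% and 0.75%. Among 13 GATA cofactors and relatives, 3 of 12 tested were lower in NPC for SUZ12 and 0 higher, with a median log2 change of -0.03. They were Zfpm1 and Zfpm2, the Friend of GATA cofactors, and Tal1, the blood partner of GATA1. Zfpm2 had a log2 change of -1.05 ± 0.27 and Tal1 of -0.99 ± 0.21. Zfpm1 averaged 83.0 ± 10.2 CPM in NPC and 175 ± 28 CPM in ESC (SD, n = 2 each), a log2 change of -1.35 ± 0.23 (edgeR quasi-likelihood test, adjusted p = 1.67e-07). For H3K27me3, 6 of 12 were higher and 2 lower. Trps1, which encodes an atypical GATA-type repressor, averaged 66.2 ± 16.1 CPM in NPC and 7.49 ± 0.33 CPM in ESC, a log2 change of 3.29 ± 0.39 (adjusted p = 6.10e-14). Its H3K4me3 was lower in NPC, with a log2 change of -0.95 ± 0.09 (adjusted p = 3.67e-27), and for that mark 3 of 13 were higher and 6 lower. Trps1 shares its window in part with another gene.

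Of 16 blood genes, 3 of 14 tested were lower for SUZ12 and 0 higher, with a median log2 change of 0.20. Fli1, a regulator of megakaryocytes and endothelium, averaged 84.3 ± 6.9 CPM in NPC and 227 ± 57 CPM in ESC (SD, n = 2 each), a log2 change of -1.71 ± 0.23 (edgeR quasi-likelihood test, adjusted p = 1.29e-11). For H3K27me3, 3 of 15 blood genes were higher and 2 lower, no more than the shares of all windows. The smallest p was that of Klf1, the red cell factor and GATA1 target (2.18 ± 0.36, adjusted p = 5.77e-08). For H3K4me3, 4 of 14 were higher and 4 lower, near the shares of all windows. Kit, the stem cell factor receptor, was lower by a log2 change of -0.95 ± 0.08 (adjusted p = 5.19e-28). Of 15 genes of Gata3 lineages, 8 were lower and 1 higher for SUZ12, with a median of -0.96. For H3K4me3, 9 of these 15 were lower and 2 higher, and Tfap2c, a trophectoderm and germ cell factor, had -1.91 ± 0.09 (adjusted p = 7.64e-102). For H3K27me3, 2 were higher and 5 lower, led by Elf5, a trophoblast factor (-1.31 ± 0.31, adjusted p = 0.000198), and for JARID2, 4 were lower, led by Tfap2a (-1.41 ± 0.20, adjusted p = 2.08e-07).

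Of 17 endoderm genes, 9 of 16 tested were lower for SUZ12 and 0 higher, with a median of -0.74. Foxa2, which marks endoderm and also the neural floor plate, averaged 105 ± 12 CPM in NPC and 345 ± 19 CPM in ESC (SD, n = 2 each), a log2 change of -1.97 ± 0.23 (edgeR quasi-likelihood test, adjusted p = 1.91e-15). It also had higher H3K4me3 in NPC, by 1.86 ± 0.10 (adjusted p = 1.21e-82), whereas Gata4 and Gata5 had less. For H3K4me3, 4 of 15 endoderm genes were higher and 5 lower, near the shares of all windows. For H3K27me3, 1 of 17 was higher and 7 were lower, led by Hnf4a, a liver and gut factor (-2.03 ± 0.36, adjusted p = 5.15e-07), whereas the median over the 17 was positive, 0.33. Of 15 heart genes, 7 were lower and 1 higher for SUZ12, with a median of -0.27. Tbx5, a heart and forelimb factor, had lower SUZ12 (-1.35 ± 0.23, adjusted p = 7.19e-08) and lower JARID2 (-1.92 ± 0.28, adjusted p = 2.44e-07). For H3K4me3, 7 of 13 heart genes were lower and 2 higher, led by Hand1 (-2.28 ± 0.14, adjusted p = 1.56e-60), and for H3K27me3, 5 of 15 were lower and 0 higher, led by Myh7, a cardiac myosin heavy chain (-1.96 ± 0.41, adjusted p = 2.48e-05), whereas the median over the 15 was positive, 0.50. The median H3K27me3 change of all windows was 0.12.

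For MTF2, no cofactor or blood gene passed. There were 2 lower and 1 higher among genes of Gata3 lineages, led by Ret, a receptor of the sympathetic and enteric lineage (-2.11 ± 0.57, edgeR quasi-likelihood test, adjusted p = 0.00692). Among endoderm genes 2 were lower, led by Lama1, a laminin chain (-1.18 ± 0.33, adjusted p = 0.00997), and among heart genes 2 were lower and 1 higher, led by Isl1, a factor of heart progenitors and motor neurons (-1.54 ± 0.45, adjusted p = 0.0128). For JARID2, no cofactor or blood gene passed, 2 heart genes were lower, and Foxa2 was the 1 endoderm gene called (-1.10 ± 0.27, adjusted p = 0.0129).

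**Figure D5:**
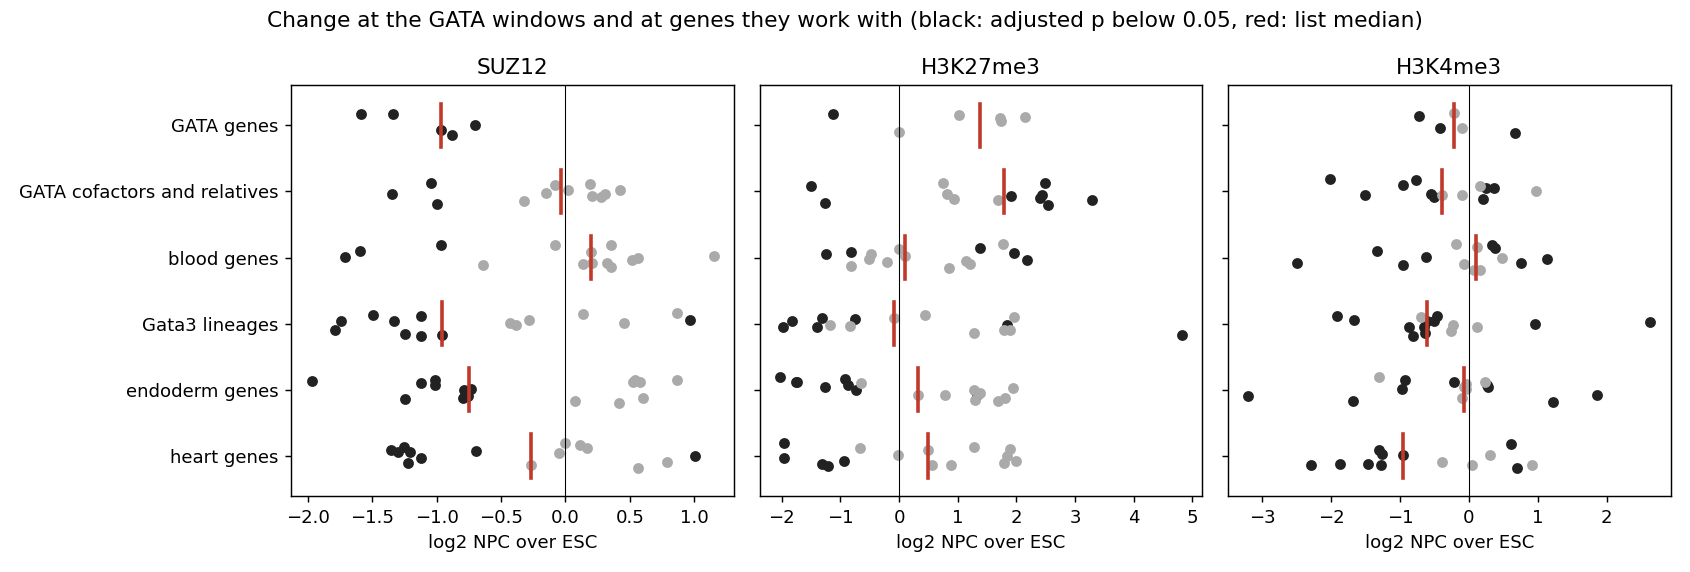
Log2 change (NPC over ESC) of SUZ12, H3K27me3 and H3K4me3 at the GATA windows and at 5 lists of genes, 1 point per window; black points have adjusted p below 0.05, grey points do not, and red bars are list medians. The SUZ12 medians are -0.96 for the GATA genes and -0.03 for the cofactors.

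The H3K4me3 of cell type markers is set beside these values because bulk libraries cannot tell fewer cells of a type from less signal per cell. The 4 endoderm markers summed to 274 and 299 CPM in NPC, against 117 and 98.3 CPM in ESC, with 2 higher and 1 lower, and the 4 mesoderm markers to 117 and 105 CPM in NPC, against 123 and 116 CPM in ESC, with 1 higher and 2 lower. Foxa2 alone averaged 120 ± 6 CPM in NPC and 32.3 ± 4.7 CPM in ESC (SD, n = 2 each) of the endoderm sum. The 4 neuron markers summed to 142 and 163 CPM in NPC, against 43.7 and 44.7 CPM in ESC, and all 4 were higher. No marker was at 0 counts in any H3K4me3 library. The part of other cell types in the changes at Gata3, Gata4 and Gata5 was not tested.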

How the data were processed

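Processed counts of 22 CUT&RUN libraries were used. The authors deposited raw counts of reads for each 5000 bp TSS window. Per the submitters' processing notes, Bowtie2 2.3.4.3, Picard 2.19 and mm10 were used, with no role given. How reads were filtered, deduplicated and counted is not given in the sources used here. Per the labels' protocols a Drosophila spike-in was added; its counts were not used, and a shift shared by all windows was therefore not measured.

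Libraries were grouped by antibody and cell type from their labels. Each antibody was tested, NPC over ESC, across all windows that passed a minimum count of 10 (edgeR 4.0.16 under R 4.3.3, filterByExpr, TMM scaling, quasi-likelihood test, Benjamini-Hochberg adjustment over all windows tested, called below 0.05). JARID2 with MTF2, and H3K27me3 with SUZ12, were fitted together for the tests of a difference between antibodies. IgG comparisons came from 1 fit over all libraries. Scripts were tested on simulated data. Alternatives were DESeq2 1.42.0 with its size factors, scaling by library totals or by 8751 windows not above IgG, no filter, a minimum count of 30, a replicate block, 1 fit over all libraries, IgG of both cell types, a log2 difference of 2 over IgG, and leaving out each library.

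All 6 GATA genes were named under every antibody, and for each list the gene with the smallest p that passed, with counts for the others. Zfpm2 and Tal1 were named after their values were seen. Some genes that this rule names are not reported here. Members and lists were chosen with earlier results of these data known. Of the windows, 142 held no count, and 27 gene names turned into dates were restored. No column was left out.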

Additional observations from a re-analysis of the deposited data

How the results depend on the processing

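All counts here are of GATA windows called, and the cause of each move was not tested unless stated. For NPC over ESC, SUZ12 (5 in the report) had 2 under a minimum count of 30, 2 in 1 fit over all libraries and 2 to 5 with a library left out. JARID2 (3) had 1 by DESeq2, 1 with background windows, 0 in 1 fit and 1 to 2 with a library left out. MTF2 (0) had 2 by DESeq2, 2 in 1 fit and 0 to 2 with a library left out. H3K27me3 (1) had 3 by DESeq2, 2 by library totals, 4 under a minimum count of 30, 5 in 1 fit and 0 to 4 with a library left out. H3K4me3 (3) had 2 by DESeq2, 4 with no filter, 0 with background windows and 0 in 1 fit. H3K27me3 minus SUZ12 (3) had 0 to 5 with a library left out. JARID2 minus MTF2 stayed at 0 under every alternative run.

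Same-numbered libraries did not deviate in the same direction (r from -0.20 for H3K27me3 and -0.18 for MTF2 to 0.01 for JARID2). Whether they shared a batch or preparation cannot be told from this. With the replicate block, SUZ12 kept 5 calls, JARID2 3, MTF2 0, H3K27me3 1 and H3K4me3 3, and H3K27me3 minus SUZ12 had 0. With the pairing crossed, chosen after seeing the data, MTF2 had 2 and H3K27me3 1.

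Over IgG in NPC, SUZ12 (0) had 2 with IgG of both cell types, 3 by library totals and 3 with background windows, and MTF2 (0) had the same 2, 3 and 3, and 0 to 1 with a library left out. H3K4me3 (0) had 1 and 2 in NPC and ESC with IgG of both cell types, and 5 in each with background windows. JARID2 in ESC (0) had 1 by library totals and 1 with background windows, and MTF2 in ESC (4) had 5 and 5 with IgG of both cell types and background windows and 2 to 5 with a library left out. In ESC, SUZ12 (4) had 5 and 5 in the same way and 3 to 4 with a library left out, and H3K27me3 (5) had 6 with IgG of both cell types and 4 to 5 with a library left out. Fits of 1 antibody with IgG, chosen after seeing the data, gave 4 for SUZ12 in NPC and 5 in ESC, 1 and 3 for JARID2 in NPC and ESC, 1 for MTF2 in ESC and 0 for H3K27me3 in both. For H3K4me3 they gave 1 in NPC and 2 in ESC. With background windows these fits gave the same, but 5 for H3K4me3 in each cell type.

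Signs turned at a few windows, on the log2 scale. Under a minimum count of 30, SUZ12 at Gata2 was 0.13, and MTF2 was 0.084, 0.31 and 0.11 at Gata2, Gata4 and Gata6. H3K27me3 at Gata5 was -0.052 by DESeq2, -0.27 by totals, -0.061 with no filter, -0.10 and -0.093 with the replicate block and its crossed form, and -0.79 to 0.46 with a library left out. H3K4me3 at Gata2 was 0.015 in 1 fit and -0.26 to 0.053 with a library left out, and at Gata6 -0.43 to 0.032. JARID2 minus MTF2 was -0.10 and -0.25 by totals at Gata5 and Gata6, and 0.13 and 0.035 with background windows at Gata1 and Gata4. With a library left out it ran from -1.17 to 0.39 at Gata1, -1.05 to 0.12 at Gata2, -1.39 to 0.45 at Gata4, -0.21 to 0.66 at Gata5 and -0.52 to 1.01 at Gata6. A lone library was taken to vary like the others.

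Scaling by totals moved the median of all windows to 0.32 for SUZ12 and 0.35 for MTF2, and background windows to -0.17 and -0.36, against 0.07 in both; for H3K27me3 background windows gave 0.40 against 0.12. Depth limits Gata1, with 6 to 15 counts in SUZ12, and JARID2, with 7 to 79 counts per GATA window. With 2 libraries per group, IgG in 1 and no spike-in count, small or shared changes were not detectable.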
